A study of Mus musculus with 6 samples.

Results

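A set of 9 NF-kB pathway genes was followed through the single-cell libraries of the mouse aortic root and ascending aorta. They are the 4 transcription factor subunit genes Nfkb1, Nfkb2, Rela and Relb, the 3 feedback genes Nfkbia, Nfkbiz and Tnfaip3, and the 2 leukocyte adhesion genes Icam1 and Vcam1. The genes were picked by symbol from the list of 31055 measured features, and each of the 9 symbols matched 1 row. The 10x Genomics 3' libraries came from 6 female mice of 16 weeks on a 129SVE background, each processed on its own. The labels give 4 controls (Tgfbr1+/+), of which 2 also carried Wnt2CRE and the EGFP-L10a tracer (CNC-traced, for cells of cardiac neural crest origin), and 2 LDS mice (Tgfbr1M318R/+), a model of Loeys-Dietz syndrome. Tissue from the root to the arch was digested with collagenase and elastase, and live nucleated cells were sorted before capture. The number that ends each barcode separates the libraries 1 to 6, but no source used here pairs that number with a mouse. No library was therefore given a genotype, and control and LDS cells were not compared. All comparisons are between cells of the same library, and no p-value is given.

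Of 30716 barcodes, 24972 cells had between 1000 and 5000 genes, between 1500 and 25000 UMIs and under 20% mitochondrial UMIs, and the kept libraries held 18218282 to 38105145 UMIs with medians of 5572 to 9838 UMIs per cell. Clusters were named from marker genes. They gave 10209 vascular smooth muscle (VSMC)-like, 13576 fibroblast-like, 569 endothelial-like and 547 leukocyte-like cells, and 71 cells with cardiomyocyte or glial markers were set aside. VSMC-like cells were split further into 7943 VSMC1-like cells, with more Tes and Ptprz1, and 1631 VSMC2-like cells, with more Enpep and Notch3, while 635 cells fell in neither. Library 6 had 10 endothelial-like cells and was left out for that class. Libraries 1, 3, 4 and 5 shared 638 to 1101 barcode sequences with each other and libraries 2 and 6 shared 244, against 2 to 8 for the other pairs, but among the kept cells only 76 barcode sequences occurred in more than 1 library. UMIs of the GFP tracer numbered 157 to 263 in libraries 1 to 4 and 6 to 8 in libraries 5 and 6, although the labels list the tracer for 2 mice.

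NF-kB proteins bind DNA as dimers of the products of the subunit genes. Rela carries the activating domain of the canonical dimer with the product of Nfkb1, and Relb pairs with the product of Nfkb2 in the non-canonical arm. Nfkbia encodes the inhibitor IkBa, which holds dimers in the cytoplasm and is itself rapidly induced by them, Tnfaip3 encodes the ubiquitin-editing enzyme A20, which dampens signalling upstream, and Nfkbiz encodes a nuclear IkB protein that modifies target choice. Icam1 and Vcam1 encode surface proteins that bind leukocyte integrins and are known as targets of the pathway on activated endothelium. Several of these genes are also known to respond within minutes to handling and enzymatic digestion of tissue, as the immediate-early genes Fos, Jun and Junb do.

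The promoters of 4 members are shown because their levels differed most or least between cell populations and because they hold different numbers of NF-kB motifs. The RefSeq promoter table (GRCm38.p6, from 250 bases before to 50 bases after the start) had entries for 5 of the 9 members, namely Icam1, Tnfaip3, Nfkbia, Rela and Nfkb2. The 10-letter NF-kB consensus was searched on both strands together with the 9-letter sequence GGAATTTCC, which was chosen after the promoters had been read. Capitals mark a match to either motif.
Nfkbia promoter, chr12:55492598-55492897, minus strand: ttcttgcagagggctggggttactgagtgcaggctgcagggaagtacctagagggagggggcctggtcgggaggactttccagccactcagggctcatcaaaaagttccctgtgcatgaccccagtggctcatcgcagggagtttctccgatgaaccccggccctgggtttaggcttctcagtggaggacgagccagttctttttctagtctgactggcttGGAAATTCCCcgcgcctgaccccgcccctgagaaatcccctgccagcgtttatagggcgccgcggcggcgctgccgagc
Tnfaip3 promoter, chr10:19015361-19015660, minus strand: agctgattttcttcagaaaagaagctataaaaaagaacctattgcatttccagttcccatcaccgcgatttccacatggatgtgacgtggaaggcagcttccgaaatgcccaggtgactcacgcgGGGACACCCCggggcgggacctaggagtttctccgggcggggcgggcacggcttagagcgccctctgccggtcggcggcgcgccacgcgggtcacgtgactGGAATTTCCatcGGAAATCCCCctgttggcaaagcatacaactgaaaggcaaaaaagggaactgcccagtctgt
Icam1 promoter, chr9:21015690-21015989, plus strand: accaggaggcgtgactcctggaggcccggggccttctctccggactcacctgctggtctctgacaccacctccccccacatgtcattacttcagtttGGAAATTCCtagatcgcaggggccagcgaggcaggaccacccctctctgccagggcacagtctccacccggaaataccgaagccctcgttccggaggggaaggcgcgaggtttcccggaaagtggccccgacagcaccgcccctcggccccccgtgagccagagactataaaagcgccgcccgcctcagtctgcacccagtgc
Rela promoter, chr19:5637291-5637590, plus strand: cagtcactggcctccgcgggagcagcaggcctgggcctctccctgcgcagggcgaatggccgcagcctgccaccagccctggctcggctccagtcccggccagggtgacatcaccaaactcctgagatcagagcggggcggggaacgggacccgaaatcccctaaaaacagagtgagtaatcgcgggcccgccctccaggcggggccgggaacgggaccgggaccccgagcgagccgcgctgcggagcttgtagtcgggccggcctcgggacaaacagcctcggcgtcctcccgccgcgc
The Nfkbia window held 1 match to the consensus that overlapped its single match to GGAATTTCC. The upstream of the 2 Tnfaip3 windows held 2 consensus matches and 1 separate match to GGAATTTCC, and the other window held neither. The Icam1 window held GGAATTTCC but no match to the consensus, and the Rela window held neither motif. The 3 windows of Nfkb2 held 3, 2 and 1 consensus matches. Those of the first lay in 2 separate stretches, and the other windows overlap and share the match GGGACTTTCC. Over all 32851 promoters of this length in the table, 8.46% held the consensus and 0.317% held GGAATTTCC. The AP-1 motif TGANTCA, bound by Fos and Jun proteins, was found in the upstream Tnfaip3 window and in 1 Nfkb2 window, and in 7.81% of all promoters. These matches describe the letters of the windows and not binding.

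All 9 genes were detected in each library. Nfkbia (chromosome 12, 55489410 to 55492647, minus strand) had 103453 UMIs and was found in 73.6% of cells, Vcam1 (chromosome 3, 116109949 to 116129688, minus) had 48616 UMIs in 41.2% of cells, Icam1 (chromosome 9, 21015985 to 21028817, plus) had 25617 UMIs in 32.4% of cells, and Nfkbiz (chromosome 16, 55811375 to 55838899, minus) had 18182 UMIs in 35.4% of cells. Tnfaip3 (chromosome 10, 19000910 to 19015657, minus) was the sparsest of the feedback genes, with 3058 UMIs in 7.22% of cells. Among the subunit genes, Nfkb1 (chromosome 3, 135584655 to 135691547, minus) had 10347 UMIs, Rela (chromosome 19, 5637483 to 5648130, plus) 9589, Relb (chromosome 7, 19606217 to 19629438, minus) 5753 and Nfkb2 (chromosome 19, 46304320 to 46312385, plus) 2669. Nfkb1 overlaps the gene model Gm43430 on the same strand, so its counts are less certain. Coordinates are those of GENCODE M21 on mm10.

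The first question was which cells of the aortic wall carried these transcripts. UMIs were summed over the cells of a population in a library and are given as CPM, the UMIs of a gene per 1000000 UMIs of that sum. In all, 8 of the 9 members were higher in fibroblast-like than in VSMC-like cells in 6 of 6 libraries, 7 were higher in endothelial-like cells in 5 of 5, and 6 were higher in leukocyte-like cells in 6 of 6, and no member was lower in all libraries in any of the 3 comparisons. Of the 8261 genes with at least 10 CPM over all cells, 37.1% were higher and 34.7% lower in fibroblast-like cells in all libraries, 29.5% higher and 25.9% lower in endothelial-like cells, and 19.2% higher and 38.7% lower in leukocyte-like cells. The median log2 ratio of the members was 1.38 in fibroblast-like, 1.79 in endothelial-like and 1.65 in leukocyte-like cells, beside medians of 0.02, 0.07 and -0.325 over all tested genes. Icam1 and Tnfaip3, at 5.53 and 2.91 CPM in pooled VSMC-like cells, passed the minimum of 10 CPM only through other classes. Both are among the 8, 7 and 6 members and enter the member medians. A log2 ratio of 1 is a 2-fold difference, and a prior of 0.5 UMI was added to both sums. In pooled sums, fewer cells with a transcript and less of it per cell cannot be told apart, and the shares of cells are given further on.

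The medians over libraries put the populations in the same order for Nfkbia, Tnfaip3 and Icam1. Nfkbia rose from VSMC1-like cells, with 70.2, 67.3, 180, 192, 246 and 95.6 CPM in libraries 1 to 6, to VSMC2-like cells, with 154, 136, 346, 367, 367 and 223 CPM. Fibroblast-like cells held 559, 433, 877, 1021, 1277 and 565 CPM in the same libraries, endothelial-like cells 970 to 1894 CPM and leukocyte-like cells 1687 to 3037 CPM. Within each of libraries 1 to 5 these 5 levels of Nfkbia were in the same order, as were the 4 levels of library 6, while between libraries the VSMC1-like level of library 5 lay above the VSMC2-like level of libraries 1, 2 and 6. Over VSMC-like cells as a whole, the median log2 ratio of Nfkbia was 2.22 in fibroblast-like, 2.83 in endothelial-like and 4.03 in leukocyte-like cells.

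Icam1 was nearly absent from smooth muscle. VSMC1-like cells held 0.978 to 3.55 CPM over the 6 libraries, from 145 UMIs in 7943 cells, against 156 to 349 CPM in fibroblast-like, 255 to 1018 CPM in endothelial-like and 598 to 1172 CPM in leukocyte-like cells. Those ranges do not overlap between VSMC1-like cells and any other class. The median log2 ratios over VSMC-like cells were 5.31, 7.05 and 6.96 for the 3 classes. Tnfaip3 showed the same order at lower counts, with medians of 2.18 CPM in VSMC1-like, 14.4 in fibroblast-like, 44.2 in endothelial-like and 222 in leukocyte-like cells. Its fibroblast-like level varied from 4.84 CPM in library 2 to 35.9 CPM in library 4.

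Vcam1 had another order. It was highest in endothelial-like and fibroblast-like cells, with medians of 668 and 462 CPM, and low in leukocyte-like cells, with a median of 73.7 CPM. Fibroblast-like cells lay within 394 to 518 CPM over the 6 libraries, whereas endothelial-like cells ranged from 230 CPM in library 4 and 300 CPM in library 2 to 1114 CPM in library 3 and 1226 CPM in library 5. The endothelial-like and fibroblast-like levels therefore overlapped. In leukocyte-like cells Vcam1 ranged from 2.96 CPM in library 2 to 111 CPM in library 4, and it was above VSMC-like cells in 4 of 6 libraries, with log2 ratios from -3.47 to 1.36.

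A separate clustering of all cells without integration of the libraries gave 2 clusters named endothelial. One held 460 cells led by Cd36 and Rbp7, genes of capillary endothelium, and the other 119 cells led by Mmrn1 and Lyve1, which mark lymphatic vessels. These clusters are not a split of the 569 endothelial-like cells, and their cells differ in part. Pooled over libraries, Vcam1 was at 820 CPM in the first and 76.2 CPM in the second cluster, and Icam1 was at 598 and 227 CPM. By library, the first cluster had 305 to 1407 CPM of Vcam1 in 5 libraries, with a median of 668 CPM, and the second 25.7 and 238 CPM in the 2 libraries with enough of these cells. Of the 119 cells, 79 came from library 4, which thus weighs most in the pooled value and is the library with the lowest endothelial-like Vcam1. How much this makeup adds to the spread of Vcam1 between libraries was not tested.

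Among the subunit genes, Nfkb1, Relb and Nfkb2 were higher in fibroblast-like than in VSMC-like cells in all libraries and Rela was not. Median log2 ratios of fibroblast-like over VSMC-like cells were 1.14 for Nfkb1, 1.19 for Relb and 0.84 for Nfkb2. In endothelial-like cells the ratios were 0.97 for Nfkb1 and 1.79 for Relb, above 0 in 5 of 5 libraries, and in leukocyte-like cells 1.58 and 1.65, above 0 in 6 of 6. Nfkb2 had ratios of 1.17 and 1.47 in these 2 classes, with 4 of 5 and 5 of 6 libraries above 0. For Rela in fibroblast-like cells the ratio was 0.16, from -0.17 to 0.37, and higher in 4 of 6 libraries. The median level of Rela was 49.4 CPM in VSMC1-like, 49.9 in VSMC2-like, 53.3 in fibroblast-like and 56.0 in leukocyte-like cells, and these ranges overlapped. In endothelial-like cells its median was 75.6 CPM, with 35.3 CPM in library 2. Nfkbiz stood at 46.1 CPM in VSMC1-like, 117 in fibroblast-like, 168 in endothelial-like and 391 in leukocyte-like cells at the median, with log2 ratios over VSMC-like cells of 1.38, 1.76 and 3.06.

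**Figure D1:**
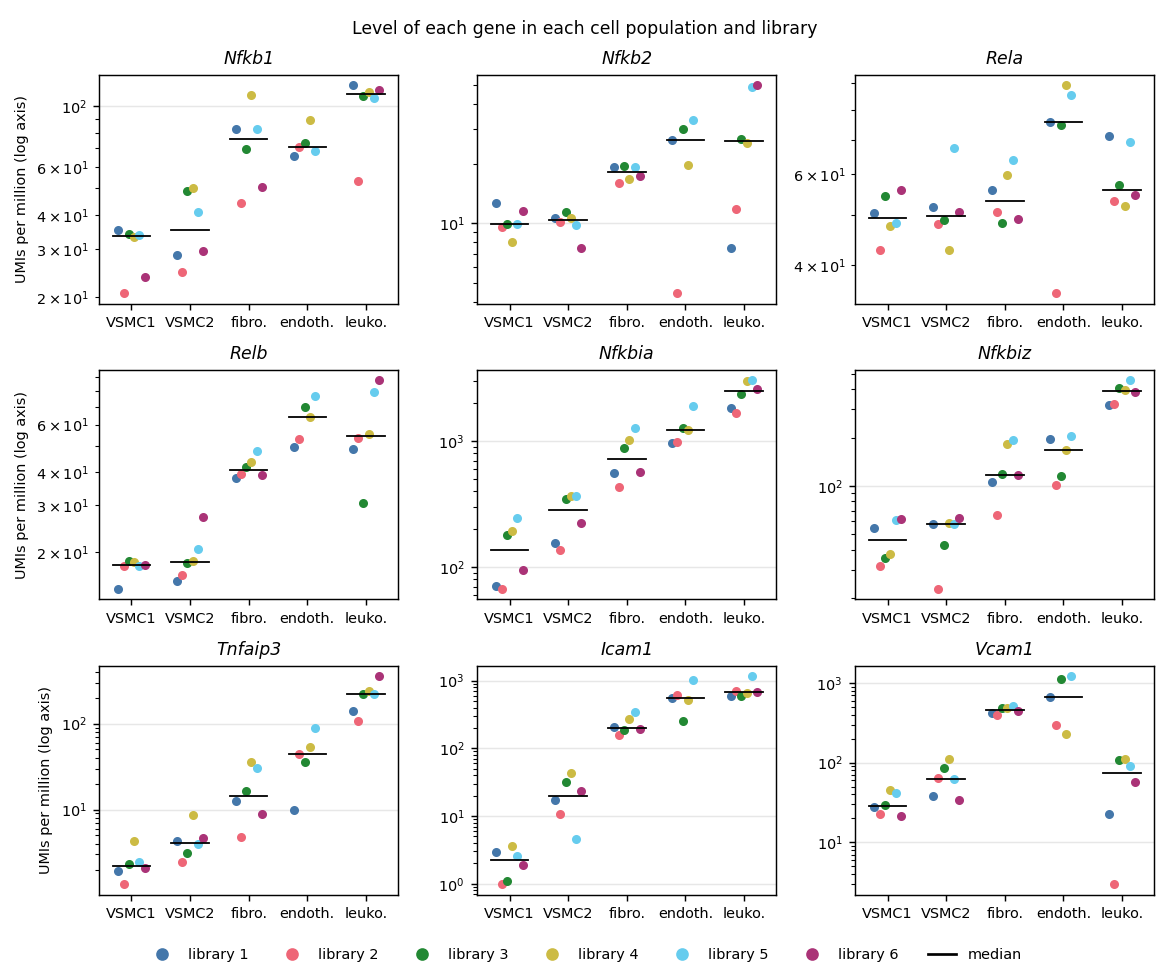
CPM (log axis) of each of the 9 genes in 5 cell populations, with 1 point per library and a bar at the median over libraries. Icam1 and Tnfaip3 climb from VSMC1-like to leukocyte-like cells, Vcam1 is highest in endothelial-like and fibroblast-like cells, and Rela keeps medians of 49.4 to 75.6 CPM.

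Cells were matched on the summed share of Fos, Jun and Junb in their UMIs, since this share differed between the populations (a median over libraries of 0.591% in VSMC-like and 0.979% in fibroblast-like cells). After matching, the log2 ratio of fibroblast-like over VSMC-like cells was 4.62 for Icam1, 3.39 for Vcam1, 1.87 for Nfkbia and 0.88 for Nfkbiz, each still above 0 in 6 of 6 libraries. In leukocyte-like cells the matched ratios were 6.47 for Icam1, 5.44 for Tnfaip3, 3.61 for Nfkbia and 2.70 for Nfkbiz.

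Single clusters differed within a class. Among fibroblast-like clusters, Vcam1 reached 876 CPM in 764 cells led by Coch and Wif1 and 639 CPM in 1760 cells led by Cytl1 and Chad, a gene of cartilage matrix, against 330 CPM in 4518 cells led by Hhip and F3. Icam1 ran the other way in the first of these, with 112 CPM in the Coch and Wif1 cluster and 275 CPM in 5718 cells led by Has1 and Tnfaip6. The 2 adhesion genes thus did not share an order among fibroblast-like clusters. Among VSMC-like clusters, the highest Vcam1 level, 135 CPM, was in 375 cells led by Cd74 and the class II antigen presentation genes H2-Ab1 and H2-Eb1, against 18.4 CPM in 3269 cells led by Des and Igfbp2, while Icam1 was at 5.17 and 1.7 CPM in the same clusters. The cluster led by Cd74 passed all 7 VSMC markers, and its 10 leading genes held 1 cardiomyocyte marker, Tnnt2. They held 0 of the VSMC markers, as did those of the VSMC-like clusters led by 2210407C18Rik, Pgam2 and Rgs5. When VSMC-like cells were clustered again, a group of 369 cells also led by Cd74 had the fibroblast marker Lum among its leading genes. Lum had a median of 578 CPM in VSMC-like cells of neither subtype, against 84.4 CPM in VSMC1-like cells. Whether fibroblast transcripts set the Vcam1 level of the cluster led by Cd74 was not tested. When the cluster led by Cd74 was left out of the VSMC-like class, the number of members higher in all libraries was unchanged in each comparison of classes, subtypes and tertiles. In leukocyte-like cells, 37 cells led by S100a9 and Il1b held 7570 CPM of Nfkbia, 1150 CPM of Tnfaip3 and 1981 CPM of Icam1, and 34 of these cells came from library 6. Without that cluster the median leukocyte-like levels were 2089 CPM for Nfkbia, 183 CPM for Tnfaip3 and 633 CPM for Icam1. Clusters were built from the variable genes of the same cells, so these values describe them and are no test.

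**Figure D2:**
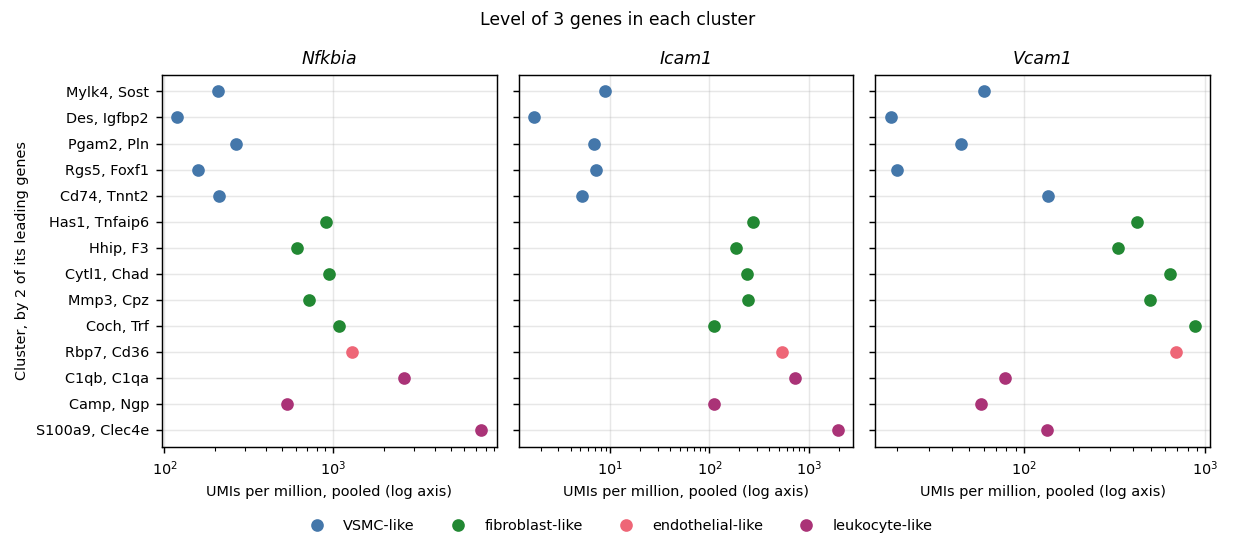
CPM of Nfkbia, Icam1 and Vcam1 (log axes), pooled over libraries, in each of the 14 clusters, named by 2 leading genes each and coloured by class. Vcam1 is high in fibroblast-like and endothelial-like clusters and in the VSMC-like cluster led by Cd74, while Icam1 is under 10 CPM in all 5 VSMC-like clusters.

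Shares of cells with a UMI were compared after cells were thinned to 3000 UMIs to put populations of different depth on the same footing. Icam1 was then found in 0.601% of 7489 VSMC1-like cells (exact 95% interval 0.439 to 0.803), 3.19% of VSMC2-like, 38.2% of fibroblast-like, 49.8% of endothelial-like and 59.8% of leukocyte-like cells, and without thinning in 1.35%, 7.11%, 52.6%, 55% and 68.9%. Median depths before thinning were 7261, 7047, 6134.5, 4676 and 5168 UMIs. Vcam1 was found in 5.63% of VSMC1-like cells, 50% of fibroblast-like, 32.4% of endothelial-like and 10% of leukocyte-like cells. Thus the endothelial-like cells had the higher median CPM of Vcam1 over libraries but the lower pooled share of cells with a UMI than fibroblast-like cells. By library, this share was 13.9% to 51.4% in endothelial-like and 46.4% to 53.9% in fibroblast-like cells, so the ranges overlapped. Library 4, with the lowest endothelial-like Vcam1 level, gave 256 of the 569 endothelial-like cells and weighs most in the pooled share. Thinning left out 155 endothelial-like cells with under 3000 UMIs. Nfkbia was found in 33.3% of VSMC1-like, 72% of fibroblast-like and 89.3% of leukocyte-like cells. Free RNA in droplets can give single UMIs in cells that do not express a gene, and its part in the VSMC1-like share of Icam1, the lowest of the 5 populations, was not tested. Intervals cover counting error only.

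The second question was whether the members differed between the subtypes of smooth muscle. Nfkbia, Vcam1, Icam1 and Tnfaip3 were higher in VSMC2-like than in VSMC1-like cells in 6 of 6 libraries, and none of the 9 was lower in all. Among 7693 genes that reached 10 CPM over the smooth muscle cells, the share higher in every library was 11.9%, and 22.4% were lower in every library. Icam1 and Tnfaip3 lay under that minimum. The median log2 ratio over the 9 members was 0.29, beside -0.07 over all tested genes. Only the difference of Nfkbia kept its direction in all libraries under each of the alternative treatments of the cells.

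For Nfkbia the log2 ratios were 1.13, 1.02, 0.94, 0.93, 0.58 and 1.22 in libraries 1 to 6, with a median of 0.98 or 1.97-fold. Fos, Jun and Junb were also higher in each of the 6 libraries, with medians of 0.71, 0.78 and 1.35, and their summed share of UMIs had a median of 0.93% (0.592 to 1.5) against 0.504% (0.335 to 1.13). When cells were matched on that share, the ratio of Nfkbia was 0.72, from 0.37 in library 5 to 0.88 in library 6, and still above 0 in 6 of 6 libraries. After matching, 11.6% of tested genes were higher and 18.8% lower in all libraries, and the 4 members that were higher in all libraries were the same 4. Matching left Junb at 0.50 and brought Fos to -0.08, so the immediate-early genes were not evened out one by one. Before matching, the wider list of 23 genes known to respond to dissociation had 12359 to 23712 CPM in VSMC1-like and 19570 to 33555 CPM in VSMC2-like cells, and 19 of the 23 were higher in all libraries. After matching, the list had a median share of 2.21% (1.65 to 2.83) in VSMC1-like and 2.50% (1.96 to 3.36) in VSMC2-like cells. It was still higher in VSMC2-like cells in each library.

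Nfkbiz behaved otherwise. Its levels were 54.6, 31.8, 35.6, 37.6, 60.8 and 62.1 CPM in VSMC1-like cells and 57.6, 22.8, 42.8, 58.8, 58.1 and 63.4 CPM in VSMC2-like cells, with a median log2 ratio of 0.05 and 4 of 6 libraries above 0. Matched on the immediate-early share, the ratio fell to -0.38, and Nfkbiz was lower in VSMC2-like cells in 5 of 6 libraries, library 4 being the exception at 0.20. In the matched sums the medians were 57.9 CPM in VSMC2-like and 62.5 CPM in VSMC1-like cells. Matching thus lowered both Nfkbia and Nfkbiz relative to VSMC1-like cells, and Nfkbia was still higher in VSMC2-like cells. None of the subunit genes was on the same side in all libraries between the subtypes, with medians of 0.29 for Nfkb1 (5 of 6 libraries above 0), 0.04 for Nfkb2, -0.05 for Rela and 0.05 for Relb, and of 0.23, 0.01, -0.02 and 0.01 after matching.

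Vcam1 had 28.1, 22.4, 29, 44.7, 41.4 and 21.3 CPM in VSMC1-like cells and 37.7, 64, 84.9, 112, 61.7 and 34 CPM in VSMC2-like cells of libraries 1 to 6. The median log2 ratio was 1.00, from 0.42 to 1.55, and 0.87 after matching. Icam1 had 4.57 CPM in library 5 and 10.7 to 43.5 CPM in the VSMC2-like cells of the others, and its median log2 ratio was 3.41, from 0.81 to 4.73, on 281 UMIs against 145. Tnfaip3 rested on 62 and 152 UMIs, with a median log2 ratio of 0.89 that was above 0 in 6 of 6 libraries.

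Of the members, Icam1, Vcam1 and Tnfaip3 had the largest median excess in fibroblast-like over VSMC-like cells, but Nfkbia came close to Tnfaip3. Over 16 alternatives, the median log2 ratio was 2.16 to 2.31 for Nfkbia and 2.37 to 2.82 for Tnfaip3. Most fibroblast markers and the share of marked doublets were also higher in VSMC2-like cells. Whether fibroblast transcripts or doublets set the levels of these genes was not tested. The 14 fibroblast markers, Lum, Dpt, Pdgfra, Dcn and Col1a1 among them, summed to 1616 to 2942 CPM in VSMC1-like and 1637 to 9628 CPM in VSMC2-like cells, and 10 of the 14 were higher and 1 was lower in the latter in every library. Cells in the top 5% of doublet scores made up 2.53% of VSMC1-like and 12.1% of VSMC2-like cells. Those 12.1% held 75.4% of the VSMC2-like Icam1 UMIs (212 of 281), 48.2% of the Vcam1 UMIs, 43.5% of the Tnfaip3 UMIs and 24.2% of the Nfkbia UMIs, beside 15.9% of all UMIs. VSMC-like cells whose fibroblast marker share was above the 95th percentile of VSMC1-like cells of their library are called fibroblast-rich here. They were 17.5% of VSMC2-like cells and held 86.5% of their Icam1, 58% of their Vcam1, 53.2% of their Tnfaip3 and 27.7% of their Nfkbia UMIs, beside 20.6% of all UMIs. The endothelial list was at 22.2 to 70.9 CPM in VSMC1-like and 46.9 to 82.4 CPM in VSMC2-like cells, and the leukocyte list at 5.12 to 35.1 and 4.36 to 30 CPM. Medians of the leukocyte list were 7.45 and 7.86 CPM. Of its 12 markers, 2 (Ptprc and Cd79a) had 0 UMIs in VSMC2-like cells, and Ptprc had 7 in VSMC1-like cells.

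**Figure D3:**
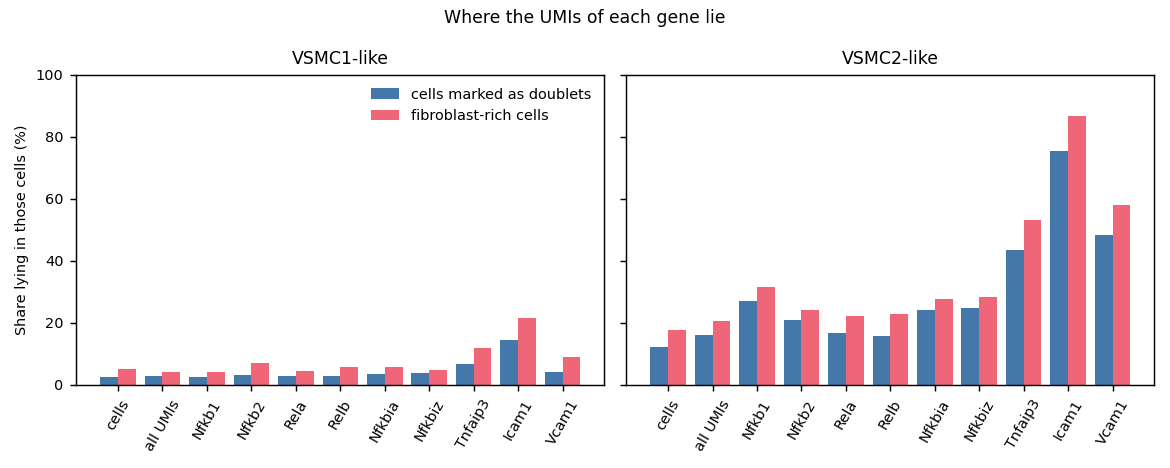
Share (%) of cells, of all UMIs and of the UMIs of each gene that lie in cells marked as doublets (blue) or in fibroblast-rich cells (red), in VSMC1-like and VSMC2-like cells. In VSMC2-like cells the bars of Icam1 reach 75.4% and 86.5% and those of Vcam1 48.2% and 58%, above the 15.9% and 20.6% of all UMIs.

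Left without the marked doublets, VSMC2-like cells had 1 member, Nfkbia, higher in all libraries, beside 12.0% of all tested genes. The log2 ratio of Nfkbia was then 0.87 at the median, from 0.54 to 1.25. Vcam1 fell to 0.43 and was above 0 in 5 of 6 libraries, Icam1 stood at 2.09 in 4 of 6 and Tnfaip3 at 0.35 in 3 of 6. In library 1, the 161 remaining VSMC2-like cells held 0 Icam1 UMIs, which allows up to 2.35 CPM, against 2.83 CPM in VSMC1-like cells. Left without fibroblast-rich cells, again only Nfkbia was higher in all libraries, beside 11.6% of all genes, with a median of 0.81, from 0.62 to 1.24. Vcam1 was then at 0.30 and Tnfaip3 at 0.27, and Icam1 at 1.21, the latter on 38 UMIs in VSMC2-like cells. The removal of fibroblast-rich cells was chosen after the other values had been seen.

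**Figure D4:**
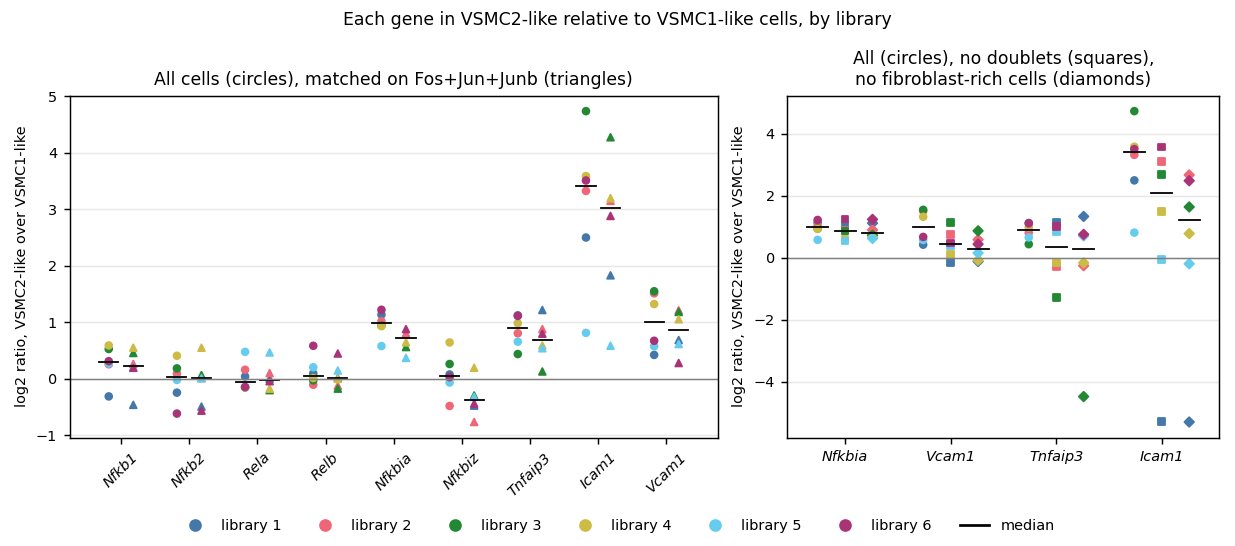
Log2 ratio between the 2 subtypes, VSMC2-like over VSMC1-like, in each library, with bars at the median. The left panel gives all 9 genes for all cells (circles) and for cells matched on the Fos, Jun and Junb share (triangles), and the right panel 4 genes for all cells, without marked doublets (squares) and without fibroblast-rich cells (diamonds), where only Nfkbia has all 6 libraries above 0 in each.

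The rest of the pathway was read from a list of 58 other genes, receptors, adaptors, kinases, ubiquitin enzymes and targets, of which 33 passed the minimum in VSMC-like cells. Relative to VSMC1-like cells, 5 of the 33 were higher and 5 were lower in the VSMC2-like cells of every library, and the shares of all tested genes were the 11.9% and 22.4% given above. The highest ratios were those of Ier3, an early stress-response gene, with a median log2 ratio of 1.68 and 6 of 6 libraries above 0, the interleukin-1 receptor Il1r1 with 0.64 and the adaptor Myd88 with 0.55, both in 6 of 6. Matched on the immediate-early share they stood at 1.10, 0.59 and 0.52. Ier3, Il1r1 and Myd88 were also higher in fibroblast-like than in VSMC-like cells in all libraries. Their ratios without marked doublets or fibroblast-rich cells are not given here, and the part of fibroblast transcripts in them was not tested. The lowest ratios were those of Tnfrsf11a, the receptor RANK, with -0.71 and 6 of 6 libraries below 0, the adaptor Traf3 with -0.59 in 5 of 6 and the deubiquitinase Otud1 with -0.48 in 5 of 6. Of the 41 that passed over all cells, 8 were under 10 CPM in VSMC-like cells, Tnf and Il1b among them, and passed through another class. The classes were therefore compared over genes with at least 10 CPM in both, a rule set after the values had been seen. Of 31 such pathway genes, 15 were higher and 5 lower in fibroblast-like cells in all libraries, beside 33.5% and 35.3% of all such genes. In endothelial-like cells 15 of 32 were higher and 6 lower, beside 29.6% and 23.1%. In leukocyte-like cells 14 of 32 were higher and 2 lower, beside 20.6% and 33.5%.

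The third question was how the members went with the immediate-early share inside a single population. VSMC1-like cells of each library were split into tertiles by that share, which had medians of 0.0285% in the lower and 1.34% in the upper tertile. Nfkbiz, Nfkbia and Icam1 were higher in the upper tertile in 6 of 6 libraries and no member was lower in all, beside 6.46% of tested genes higher and 16.7% lower in all libraries. Nfkbiz had the largest ratio, 2.18 at the median or 4.52-fold, from 1.69 in library 2 to 2.79 in library 3. Nfkbia followed with 1.16, from 0.39 in library 2 to 2.06 in library 5, and Icam1 with 0.97, from 0.83 to 1.67. Icam1 lay under the minimum of the tested genes, with 0.36 to 2.59 CPM in the lower and 1.09 to 5.02 CPM in the upper tertile. The call of Icam1 in all libraries held in 14 of 16 alternatives, though those that left out a library could not have undone it. The remaining members had medians of 0.69 for Tnfaip3, 0.52 for Relb and Vcam1, 0.24 for Nfkb1, 0.10 for Nfkb2 and 0.09 for Rela, none with all libraries on the same side. Without library 2 the number of members higher in all libraries was 5.

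In fibroblast-like cells, where all members were better counted, Nfkbiz, Nfkbia, Icam1 and Relb were higher in the upper tertile in 6 of 6 libraries, with medians of 1.37, 1.24, 1.13 and 0.47, beside 7.05% of genes higher and 18.8% lower in all libraries. Vcam1 had a median of 0.17 there, with 5 of 6 libraries above 0. Thus Icam1 went with the immediate-early share in VSMC1-like cells, where its counts were low, and in fibroblast-like cells. Vcam1, with medians of 0.52 and 0.17, did so in 4 and 5 of 6 libraries. In VSMC2-like cells the medians were 1.61 for Nfkbia and 0.90 for Nfkbiz, both with 6 of 6 libraries above 0, and -0.12 for Icam1, beside 4.26% of genes higher and 7.20% lower in all libraries. Relb went the other way there at the median, with 12.9 CPM (10.0 to 31.3) in the upper and 19.8 CPM (10.4 to 23.8) in the lower tertile. The 23 dissociation genes, which include Fos, Jun and Junb, had a median share of 0.595% in the lower and 3.02% in the upper tertile of VSMC1-like cells. Whether the share was set in the animal or during digestion cannot be told apart here.

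**Figure D5:**
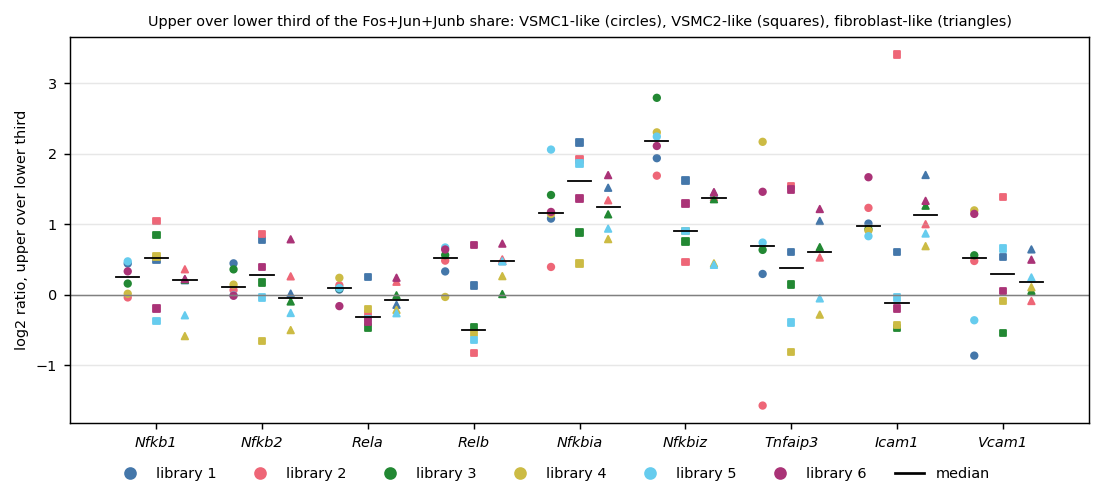
Log2 ratio of the upper over the lower tertile of the Fos, Jun and Junb share for each gene in VSMC1-like (circles), VSMC2-like (squares) and fibroblast-like cells (triangles), with 1 point per library and a bar at the median. Nfkbiz and Nfkbia lie above 0 in all libraries of all 3 populations, and Rela and Nfkb2 scatter around 0.

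Likeness between genes was described over the 29 profiles of the 5 populations in the libraries with enough cells, as Pearson correlations of log2(CPM + 10). Profiles of the same library share its depth and handling, and profiles of the same population share its level. Nfkbia correlated with Icam1 at 0.94, with Nfkb1 and Nfkbiz at 0.92, and with Vcam1 at 0.43, while Vcam1 and Tnfaip3 correlated at 0.11. Rela had no correlation with another member above 0.54. Among 10560 genes, those most like Nfkbia were Ier3 (0.96), Jpt1 and Plk3, those most like Icam1 were Marcks (0.97), Dnajb9 and Ly6e, and those most like Vcam1 were Tfpi (0.93), Bmp4 and Lamb1. Tnfaip3 went most with Marcksl1 (0.97), Pcna and Cxcl2, and Nfkbiz with Birc3 (0.95), Pcna and Fam111a. For the subunit genes the closest were Ivns1abp, Ptbp1 and Ccng2 for Nfkb1 (0.94 at most), H2-T22, Nasp and Lmo2 for Relb (0.93), Adam17, Cep192 and Cpeb2 for Nfkb2 (0.87), and Rnf31, Prkx and Gramd4 for Rela (0.84).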

How the data were processed

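The single-cell libraries were made from 6 mice with the 10x Genomics 3' v3 chemistry. The authors deposited UMI counts of 31055 features in 30716 barcodes as a single matrix, for which their processing notes name mm10 and Cell Ranger 6, while its header names another version. The deposited counts are whole numbers without normalization, and whether depth was equalized between libraries is not given in the sources used here. Cells were filtered as in the study's methods. Each library was normalized with SCTransform, integrated by RPCA over 30 principal components and clustered in Seurat 5.3.0 (R 4.3.3) at a resolution of 0.25, and the VSMC-like cells were clustered again at 0.05 without the listed genes. A cluster was named from the marker list with the highest score if at least 3 markers passed. Cells in the top 5% of Scrublet scores (scanpy 1.11.5) were marked as doublets and kept, except where stated.

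UMIs were summed per population and library, populations under 20 cells in a library were left out, and log2 ratios were taken within a library with a prior of 0.5 UMI. Matching weighted cells to the same make-up over 10 bins (5 under 100 cells) of the Fos, Jun and Junb share. A gene was called where all libraries lay on the same side of 0. The code for ratios, calls and matching was run on simulated counts drawn from a single VSMC1-like profile. Only median ratios were checked against the known answers. The simulation held no doublets and no differences in expression between libraries, so it does not speak to either. No p-values were computed, since libraries that could not be assigned to a genotype were not taken as replicates of a group, and cells are not replicates. The depth of 18218282 to 38105145 kept UMIs per library limits Icam1 and Tnfaip3 in VSMC-like cells, and exact intervals cover counting error only.

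The text names the 9 members, Fos, Jun and Junb, the 3 pathway genes with the highest and the 3 with the lowest median ratio between the subtypes, the 3 genes most like each member, and markers or leading genes of a population. The members and lists were chosen with earlier results of these data known. Alternatives covered the libraries used, the prior, centring, clustering, doublets, mitochondrial and foreign UMIs and the variable matched on, and the removal of fibroblast-rich cells, of cells with shared barcodes, of 1 leukocyte-like and 1 VSMC-like cluster, and a minimum of 10 CPM in both classes for the pathway genes, were added after the data had been seen. Human and spatial data were not used here.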

Additional observations from a re-analysis of the deposited data

How the results depend on the processing

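Over 27 alternatives, Nfkbia was higher in VSMC2-like than in VSMC1-like cells in all libraries in 19 of the 19 that applied, with medians of 0.71 to 1.04, and of 0.42 to 0.98 in the matched comparison. Settings that left out 1 library reused the same ratios and could not undo a call or lower a count. The setting that left out members under 10 CPM kept the ratios of Nfkbia and could not undo its call either. The counts for the cell classes stayed within 1.5 times the reported ones. The number of members higher in VSMC2-like cells in all libraries, 4 with all cells, was 1 with log-normalized clustering without integration, 1 without doublets, 1 at the finer resolution and 1 without fibroblast-rich VSMC-like cells, each also 1 in the matched comparison, and 2 when members under 10 CPM were left out, since fewer members were then counted. The cause of the others was not tested. With log-normalized clustering the medians of Tnfaip3 (-0.0196, matched -0.11), Icam1 (-0.21, matched -0.69) and, when matched, Vcam1 (-0.0372) were below 0. Leaving out 1 library in turn gave 4 to 5 members higher in VSMC2-like cells and 3 to 5 in the upper tertile, the 5 without library 2, where centring on the median gene also gave 5. Over all alternatives the number in the upper tertile was 2 to 5, so some alternatives lowered it. The pathway genes higher in VSMC2-like cells numbered 5 to 9 when 1 library was left out, the 9 without library 1, and were 9 after centring, 9 with log-normalized clustering, 8 at the finer resolution and 9 without a minimum CPM, which let 58 genes pass in place of 33. With 10 CPM over all cells as the minimum, 21 of the 41 pathway genes were higher and 7 lower in fibroblast-like, 19 and 6 in endothelial-like and 21 and 3 in leukocyte-like cells. No paired analysis was possible because the libraries cannot be tied to the numbered samples of the labels, which bars a pairing across genotypes, while all ratios compare populations within a library. The low counts of Icam1 and Tnfaip3 in VSMC-like cells limit what their ratios can show.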
